A study of Mus musculus with 24 samples.

Results

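Genes of the collagen and laminin matrix, of its integrin receptors, of the proteases that cut it and of the TGF-beta pathway were followed in lung and skin of mice after local gamma irradiation. The group holds 81 of the 5908 genes that carried a single symbol on the array, taken by the start of the symbol (Col and a digit, Lama, Lamb, Lamc, Itga, Itgb, Mmp, Adam, Timp, Fbn, Fbln, Lox, Tgfb, Ltbp and Smad) with Mmp2, Timp1 and Itga5 left out. No other Timp gene and no Fbn gene was measured under a single symbol. By role they were 5 fibrillar collagens, 4 basement membrane collagens, 9 other collagens, 8 laminins, 8 integrin alpha chains, 7 integrin beta chains and partners, 9 matrix metalloproteinases, 10 ADAM and 5 ADAMTS proteins, 3 fibulins, 1 lysyl oxidase, 5 ligands, receptors and induced proteins of TGF-beta, 1 latent TGF-beta binding protein and 6 Smads. Female mice 12 to 13 weeks old were used, of A/J, of C57BL/6J or of C3H/HeMs, all inbred, and values of 3 pools are given below in that order of strains. Lung came from mice killed 1 h, 12 h or 72 h after 10 Gy to the thorax, and full-layer skin from mice killed 1 h, 12 h or 72 h after 30 Gy to the hind leg, with non-irradiated mice of the same strains as controls. On each of 24 arrays a pool of RNA of 3 mice was hybridised beside a commercial mix of RNA of 10 organs, the reference, and the 8 groups had 3 arrays each, 1 per strain. The strain was a block in the fits, so the spread behind each p-value is not that between animals of 1 strain. It is how far pools deviate once group and strain are fitted, and in the interaction test the times stand in for replicates. Fewer cells of a type and less RNA per cell cannot be told apart in such bulk samples.

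Fibrillar collagens are secreted as procollagens, trimmed, cross-linked by lysyl oxidases and laid down as fibres by fibroblasts, while type IV collagen and laminins form the sheet of the basement membrane under epithelium and endothelium. Cells hold on to both through integrins, heterodimers of an alpha and a beta chain, and matrix metalloproteinases, ADAM and ADAMTS enzymes cut the matrix or shed proteins from the cell surface. TGF-beta is stored in the matrix in a latent complex, and once free it signals through its receptors to Smad2. Smad2 enters the nucleus with Smad4 and drives matrix genes. Smad7 inhibits the signal, and Smad6 is also an inhibitory Smad. In irradiated lung and skin this system is known above all for the late deposition of collagen in radiation fibrosis.

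Promoters are shown for Col17a1 and Smad6, which held the largest differences between skin and lung in each direction. Col1a2 is shown since its ratio ranged widely among the skin pools, controls included. Col4a1 and Col4a2 are shown as neighbours whose ratios went together in lung. In skin Col4a2 was less like Col4a1 from array to array than Lamb1 (Pearson r = 0.82) or Col9a3 (0.56) was. Sequences were taken from RefSeq on GRCm38.p6, whose promoter table held 49 of the 81 genes, and run 5′ to 3′ from 250 bases before the annotated start to 50 after it. In Col17a1 (chr19:47691993-47692292, minus strand) the capitals mark TATAAA, which begins 140 and 91 bases before the start. In Smad6 (chr9:64022010-64022309, minus strand) they mark GTCTAGAC, the palindrome that Smad proteins are known to bind, which begins 4 bases before the start, and CCAAT. In Col1a2 (chr6:4505368-4505667, plus strand) they mark CCAAT, also as its reverse complement, and GGGCGG. The stretch of chr8:11312777-11312854 (plus strand) is the 78 bases common to the windows of Col4a1, on the minus strand, and Col4a2, on the plus strand, with the 20 bases between their annotated starts in capitals.
Col17a1: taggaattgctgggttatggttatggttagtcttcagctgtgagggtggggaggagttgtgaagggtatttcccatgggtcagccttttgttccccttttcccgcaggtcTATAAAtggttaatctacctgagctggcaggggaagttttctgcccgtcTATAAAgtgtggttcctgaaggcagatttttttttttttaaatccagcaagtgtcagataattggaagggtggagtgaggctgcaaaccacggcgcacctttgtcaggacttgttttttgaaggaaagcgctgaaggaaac
Smad6: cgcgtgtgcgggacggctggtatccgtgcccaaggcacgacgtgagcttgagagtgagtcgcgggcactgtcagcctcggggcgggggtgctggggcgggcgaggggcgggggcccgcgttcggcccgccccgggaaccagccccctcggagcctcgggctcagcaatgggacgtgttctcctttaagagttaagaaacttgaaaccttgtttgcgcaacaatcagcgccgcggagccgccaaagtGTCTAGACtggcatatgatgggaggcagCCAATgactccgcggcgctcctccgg
Col1a2: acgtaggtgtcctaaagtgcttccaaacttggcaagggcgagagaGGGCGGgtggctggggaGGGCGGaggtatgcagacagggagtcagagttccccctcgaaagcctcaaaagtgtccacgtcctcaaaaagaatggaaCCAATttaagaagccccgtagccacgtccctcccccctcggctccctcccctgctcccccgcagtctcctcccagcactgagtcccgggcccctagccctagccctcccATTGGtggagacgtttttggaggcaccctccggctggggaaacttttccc
Col4a1 and Col4a2: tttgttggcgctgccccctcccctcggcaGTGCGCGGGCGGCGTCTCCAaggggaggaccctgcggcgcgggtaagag
On either strand, GTCTAGAC was in 1 of the 49, that of Smad6, and in 57 of 27025 promoters in all (0.211%). The shorter Smad motif CAGAC, whose letters do not occur inside that palindrome, was in 46.9% of the 49 and 49.7% of all promoters. The share among the 49 and among all promoters was 42.9% and 37.9% for CCAAT, 14.3% and 14.2% for TATAAA, and 61.2% and 35.9% for GGGCGG. These matches are descriptions of letters, not of sites in use.

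All values below are log2 ratios of the tissue over the reference RNA, centred on the median of the array, and a change is the ratio of an irradiated pool minus that of the control pool of the same strain. A ratio sets a gene against its own level in the reference and gives no amount. Overlap, or its absence, between groups describes 3 pools against 3. The share of all features without overlap was not counted, so its absence is not read as a response. Many genes named at a time were picked for 1 sign in every strain, so for them that agreement was fixed by the choice. Cy5 was the dye of every skin sample and Cy3 that of every lung sample, so the lung ratios were turned. The correlation between lung and skin arrays was -0.52 to -0.12 as deposited and 0.12 to 0.52 after turning. The mean ratio of 3 lung epithelium genes ran from 1.74 to 3.44 over the 12 lung arrays, and that of 5 epidermis genes from 4.79 to 6.35 over the 12 skin arrays, with 9 skeletal muscle genes between -1.78 and 1.49 in skin. The lung arrays formed 2 sets: 4 of them, from A/J and C3H/HeMs at the later times of 12 h and 72 h, held 115 to 674 ratios of exactly 0, the other 8 lung arrays 1 to 23, and correlations were 0.90 to 0.96 within the 8, 0.89 to 0.94 within the 4 and 0.80 to 0.89 between them. The lung arrays of C57BL/6J all belonged to the larger set, so its 12 h and 72 h changes compare arrays within that set. An exact 0 was found on 1 array each for Col12a1, Itgb7, Mmp7 and Smad2.

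None of the 81 genes passed the threshold after irradiation in either tissue. In limma with the strain as a block and Benjamini-Hochberg adjustment over 8750 features at 0.05, 0 of 81 passed in lung at 1 h, 12 h and 72 h, where 0.0114%, 0.114% and 0.114% of all features passed, and 0 of 81 in skin, where 0% of all features passed at each time. Among the genes the lowest adjusted p at 12 h was 0.349 in lung, with 0.324 at 72 h, and for skin it was 0.604 and 0.650, with 1.0 at 1 h in both tissues. With the 9 irradiated arrays of a tissue pooled against its 3 controls, 0 of 81 passed as well, against 0.0914% of all features in lung and 0% in skin, and 7 and 9 of the 81 had an unadjusted p under 0.05, against 6.59% and 5.52% of all features. At an unadjusted p under 0.05 the genes of lung numbered 5 (6.17%), 7 (8.64%) and 16 (19.8%) at the 3 times, against 2.24%, 12.1% and 12.4% of all features. In skin they numbered 5 (6.17%), 9 (11.1%) and 14 (17.3%), against 4.37%, 6.71% and 7.39%. The share among these genes was thus above that of all features in every comparison but lung at 12 h, and the difference between the shares was not tested. The 16 genes at 72 h in lung were 13 with a positive and 3 with a negative change, and the 14 at 72 h in skin were 11 and 3.

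**Figure D1:**
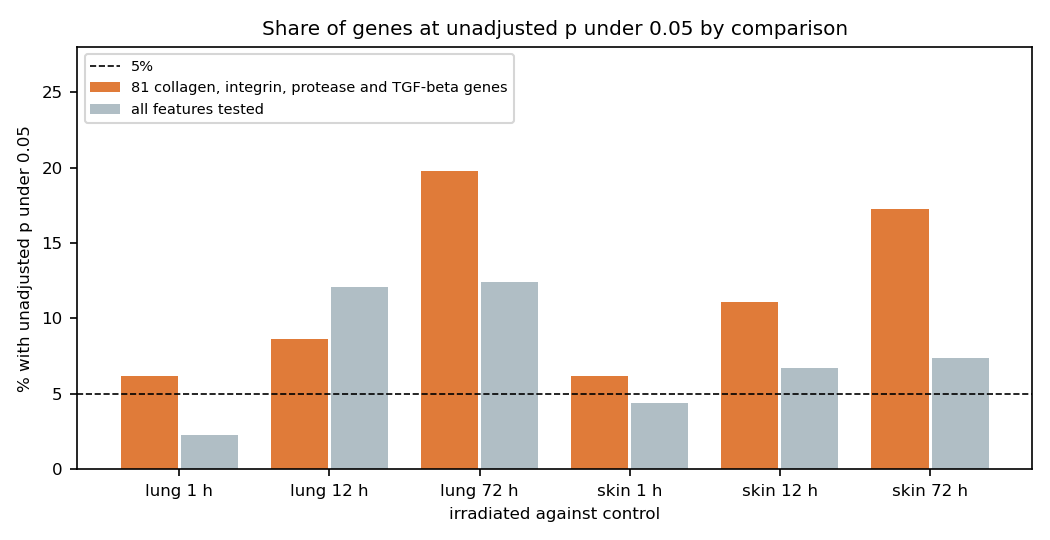
Share of genes with an unadjusted limma p under 0.05 (vertical axis, %) in the 6 comparisons of irradiated with control pools, for the 81 genes and for all 8750 features; the dashed line marks 5%. The bars of the 81 genes reach 19.8% in lung at 72 h and 17.3% in skin at 72 h, and in lung at 12 h their bar of 8.64% is below that of all features.

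Few of the genes had a sizeable change in every strain. No gene had a change of 2-fold or more with 1 sign throughout the strains in any comparison, a rule that 0.126%, 0.297% and 0.263% of all features met in skin at the successive times, against 0.0343%, 0.171% and 0.251% in lung. At 1.5-fold the rule was met by Adamts4 and Adamts12 in skin at 1 h (0.823% of all features) and by Col23a1 in skin at 72 h (1.5% of all features). It was met by 0 of 81 in skin at 12 h (1.42% of all features) and at each time in lung (0.229%, 0.88% and 1.66%). In lung at 72 h, 27 genes had a positive and 9 a negative change in all 3 strains, 44.4% of the 81, where 32% of all features went the same way in every strain. That share was 24.7% and 22.2% of the 81 in lung at 1 h and 12 h (29.5% and 27.6% of all features), and 34.6%, 28.4% and 35.8% in skin at 1 h, 12 h and 72 h (29.3%, 26% and 30.1%). For lung the median change of the 81 at the 3 times was 0.04, 0.03 and 0.14, against -0.01, 0.07 and 0.05 over all features, and for skin it was 0.07, -0.09 and 0.08, against -0.05, -0.03 and -0.01. With the 4 lung arrays of the smaller set left out, the median in lung at 72 h was 0.04. With 1 array or strain left out the skin medians ran from -0.0034 to 0.085 at 1 h, -0.20 to -0.0015 at 12 h and 0.072 to 0.22 at 72 h, and those of lung from -0.020 to 0.087, -0.0067 to 0.067 and 0.10 to 0.20. Without C3H/HeMs the skin median was -0.0034 at 1 h and 0.22 at 72 h.

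**Figure D2:**
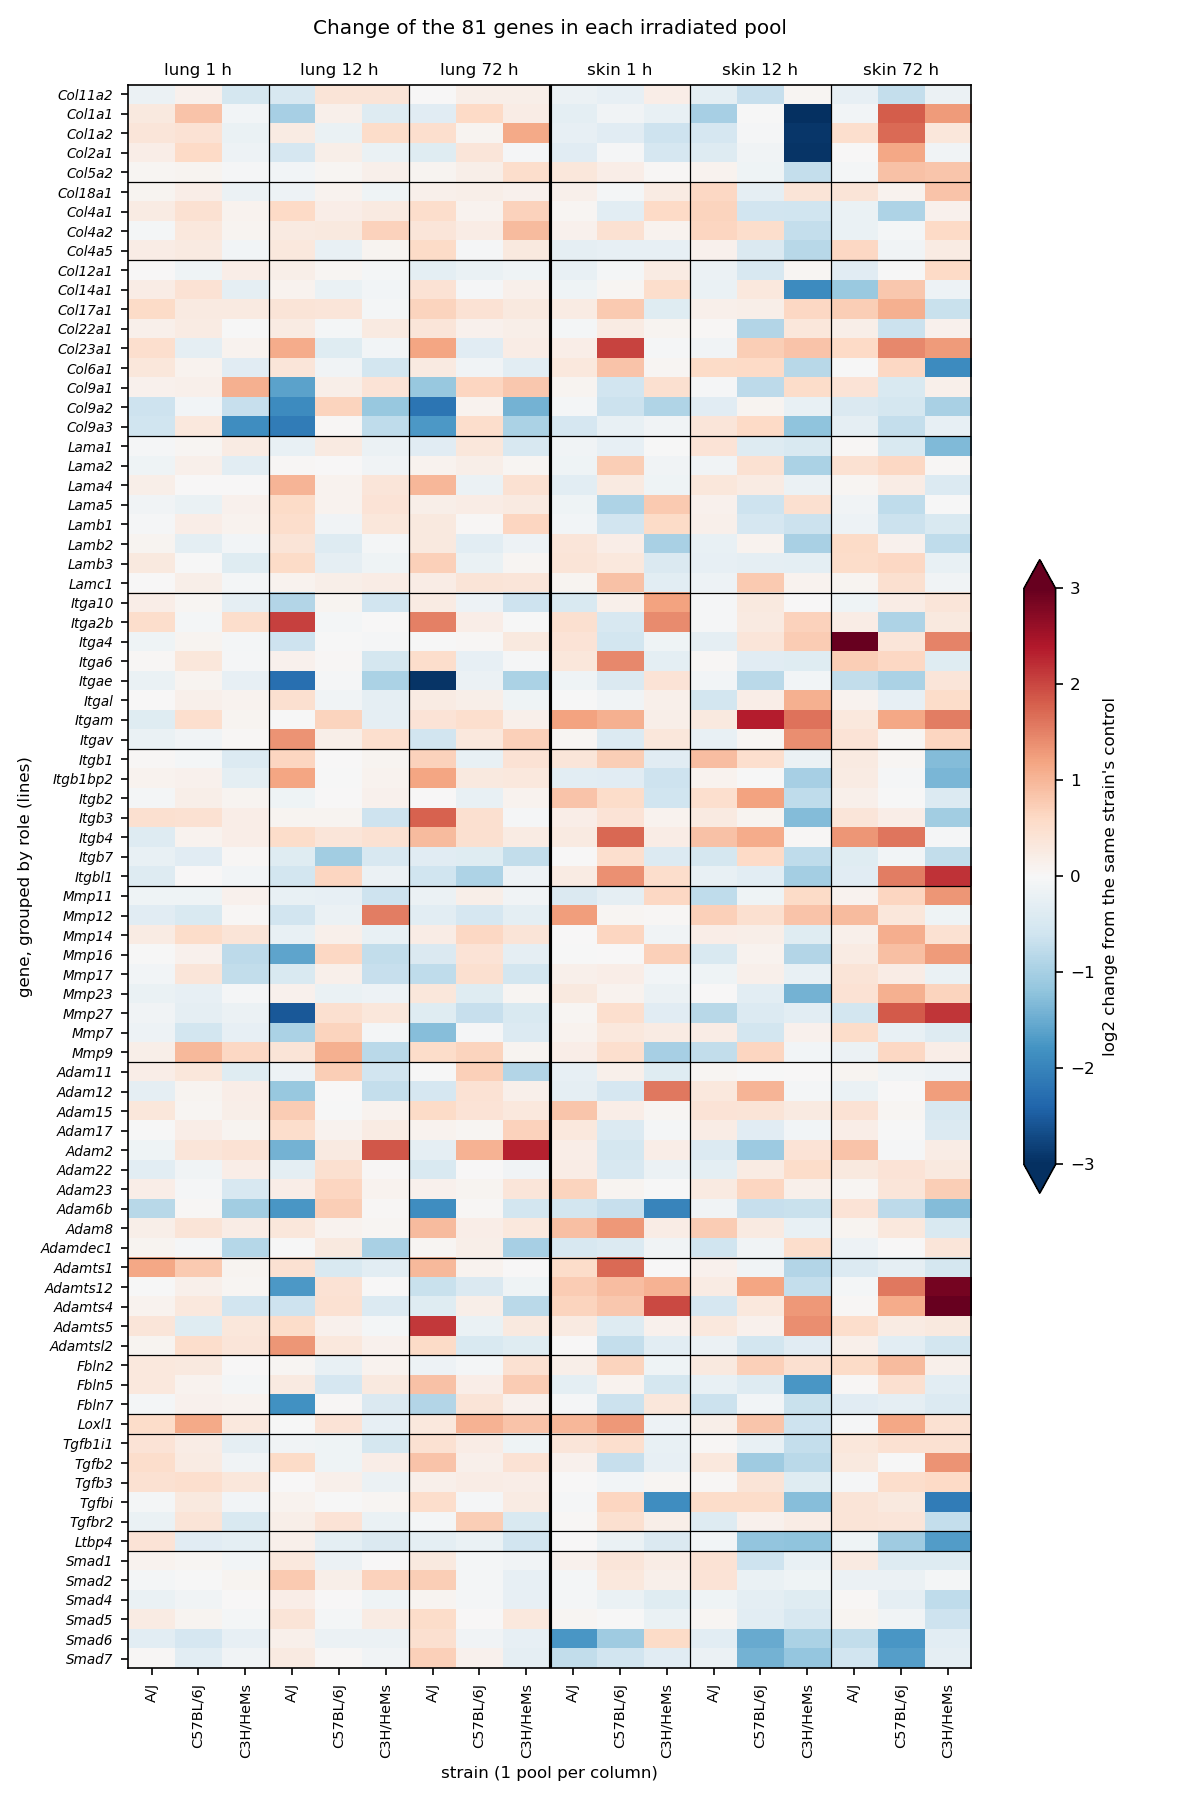
Log2 change of each of the 81 genes (rows, grouped by role) in each irradiated pool against the control pool of its strain (columns, lung left and skin right), with colours limited to 3 in either direction. The share of the 81 past 2-fold is 1.23% to 24.7% in the skin pools, lowest in A/J at 12 h, and in lung it is 21.0% and 13.6% in the A/J pools at 12 h and 72 h and 1.23% to 4.94% in the other 7. Dark blue marks Col1a1, Col1a2 and Col2a1 in the C3H/HeMs skin pool at 12 h and Itgae in the A/J lung pool at 72 h.

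Basement membrane collagens of lung had positive changes at 72 h that did not pass. Col4a1 and Col4a2, which encode the chains of the common type IV collagen, had ratios of 0.89, 0.31 and 1.22 and of 1.25, 0.53 and 1.39 in the pools at 72 h, against 0.36, 0.21 and 0.53 and 0.88, 0.32 and 0.45 in the control pools. Every pool at 72 h was above the control of its strain for both genes, and the groups overlapped. The fitted change was 0.44 ± 0.18 (SE) for Col4a1 and 0.51 ± 0.18 for Col4a2, with limma adjusted p of 0.386 and 0.354. All 4 basement membrane collagens had positive changes at 72 h, with a median of 0.36, where 57.5% of all features had a positive change. In C57BL/6J, within the larger array set, the 72 h changes were 0.10 for Col4a1 and 0.22 for Col4a2. Over the 12 lung arrays Col4a1 followed the laminin chain gene Lamb1 (Pearson r = 0.91), Tgfb2 (0.88) and Col4a2 (0.85) most closely, a description over arrays that share times, strains and the array sets.

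Fibrillar collagens, the bulk of interstitial fibres, had no call in lung. Col1a1 had ratios of -2.87, -1.89 and -1.94 at 72 h, against -2.54, -2.49 and -2.16 in controls, which overlapped (change 0.16 ± 0.24 SE). Col1a2, the partner chain of type I collagen, was at -1.17, -1.13 and -0.23, against -1.69, -1.21 and -1.35, with each pool above its own control and no overlap (0.57 ± 0.28 SE, limma adjusted p = 0.426). The 5 fibrillar collagens had a median change of 0.20, 0.05 and 0.16 at 1 h, 12 h and 72 h. Col17a1, a transmembrane collagen of hemidesmosomes, had 0.87, 0.84 and 0.96 at 72 h, against 0.20, 0.40 and 0.65 in controls, again without overlap. Its change was 0.37 ± 0.14 at 1 h and 0.47 ± 0.14 at 72 h (SE, limma adjusted p = 1.0 and 0.337), and 0.57 at 72 h with the array set as a block. Col9a2 and Col9a3, chains of a cartilage collagen, were at -1.17 and -0.72 on the fitted scale at 72 h, but in C57BL/6J their changes were 0.10 and 0.52.

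Loxl1, a lysyl oxidase-like enzyme that cross-links elastin, and Mmp14, the membrane-bound protease that cuts collagen and activates other metalloproteinases, shared a pattern over time in lung. Loxl1 was at 0.52, 0.29 and 0.84 in controls, 1.06, 1.43 and 1.16 at 1 h, 0.51, 0.69 and 0.59 at 12 h, and 0.84, 1.33 and 1.70 at 72 h. Mmp14 was at -0.26, -0.57 and -0.28 in controls, -0.02, -0.02 and 0.10 at 1 h, -0.49, -0.40 and -0.51 at 12 h, and -0.04, 0.04 and 0.11 at 72 h. For both genes the pools at 1 h and at 72 h all lay above the highest control, narrowly for the A/J pool of Loxl1 at 72 h, and the 12 h pools were within the range of the controls. The fitted changes at 1 h and 72 h were 0.67 ± 0.20 and 0.74 ± 0.20 for Loxl1 and 0.39 ± 0.13 and 0.41 ± 0.13 for Mmp14 (SE), with limma adjusted p of 1.0 at 1 h and 0.324 and 0.341 at 72 h. With the array set as a block the 72 h changes were 0.83 and 0.56. Fbln5, a fibulin of elastic fibres, was at 1.67, 0.97 and 1.95 at 72 h, against 0.79, 0.77 and 1.19 in controls (0.61 ± 0.20 SE, limma adjusted p = 0.349), and its change was 0.15 with that block. Lamc1, the gamma chain common to most laminins, had a change of 0.33 ± 0.11 (SE), with positive values in all 3 strains and 0.30 with the block.

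**Figure D3:**
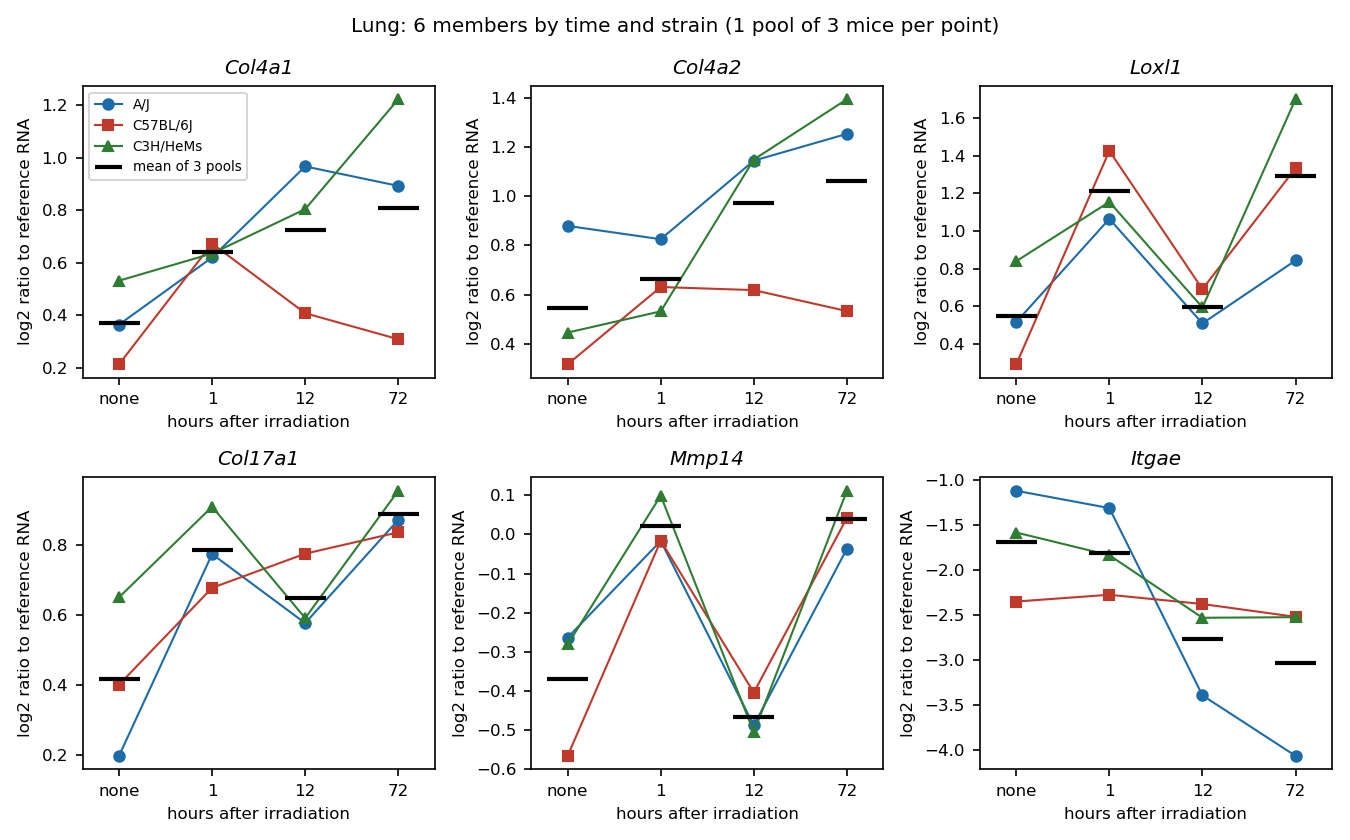
Log2 ratio to the reference RNA (vertical axis, each panel on its own scale) of 6 genes in lung against hours after irradiation, with 1 point per pool of 3 mice, lines joining the pools of a strain and a black bar at the mean of 3 pools. Loxl1 and Mmp14 are above their controls at 1 h and 72 h and close to them at 12 h, and Itgae reaches -4.06 in A/J at 72 h.

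Tgfb3, a TGF-beta ligand, had the lowest p of the group in lung at 1 h. It was at 0.91, 0.94 and 0.93 at 1 h, against 0.46, 0.44 and 0.58 in controls, and the groups did not overlap. Its change was 0.43 ± 0.12 (SE, limma adjusted p = 1.0), with -0.01 at 12 h and 0.20 at 72 h. The ligand Tgfb2 was at 1.63, 0.89 and 1.60 at 72 h, against 0.78, 0.74 and 1.17 in controls, which overlapped (0.48 ± 0.18 SE). All 5 ligands, receptors and induced proteins had a positive change at 72 h, from 0.07 to 0.48, where 57.5% of all features had one. Smad6, an inhibitory Smad, was at 1.92, 1.73 and 2.19 at 1 h, against 2.24, 2.23 and 2.43 in controls (-0.35 ± 0.17 SE), with every 1 h pool below the lowest control. Smad2, the carrier of the TGF-beta signal, had 0.96, 0.26 and 0.74 at 12 h, against 0.19, 0.08 and 0.05 in controls (0.55 ± 0.22 SE, limma adjusted p = 0.391). Adamts1, a protease of proteoglycans, was at 1.61, 1.62 and 1.11 at 1 h, against 0.46, 0.84 and 1.04 in controls (0.67 ± 0.23 SE), and the C3H/HeMs pool differed from its control by 0.08.

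Laminin genes of lung had small changes. Lama5, the alpha chain of epithelial and vascular laminins, was at 1.65, 1.37 and 0.98 at 12 h, against 1.08, 1.25 and 0.56 in controls (0.37 ± 0.14 SE), and Lama4, an alpha chain of vessels and muscle, was at 0.78, 0.49 and 0.47, against -0.23, 0.37 and 0.11 (0.50 ± 0.22 SE). Each 12 h pool was above the control of its strain, which the rule that named both genes had fixed. The groups overlapped for Lama5 and not for Lama4, and with the array set as a block the changes were 0.31 and 0.03. Of the 8 laminins 6 had a positive change at 72 h, with a median of 0.20, where the 9 matrix metalloproteinases had 3 positive changes and a median of -0.09. Of all features 57.5% had a positive change at that time. Mmp11 was at 0.50, 0.47 and 0.32 at 12 h, against 0.73, 0.71 and 0.94 in controls, with no overlap (-0.37 ± 0.16 SE). Adam15, a sheddase of vessels, was at 0.76, 0.87 and 0.75 at 72 h, against 0.17, 0.46 and 0.43 in controls, also without overlap (0.44 ± 0.16 SE). Adam12 and Fbln7 had fitted changes of -0.61 and -0.74 at 12 h, where their C57BL/6J pools were at -0.51 for both genes, against -0.53 and -0.54 in the controls of that strain.

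Itgae and Itgb7, integrin chains of lymphocytes, were on the negative side in lung, but not all leukocyte integrins were. The mean ratio over all 12 lung arrays, controls included, was 0.23 for Itgal, against 0.18 in the controls alone. For Itgb2 it was 0.93 against 0.92 and for Itgam 0.45 against 0.31. Itga4 was slightly lower, at 0.22 against 0.25, and its change at 12 h was negative in every strain (fitted change -0.22). These means merge the times and include the controls, so they are not changes at a given time. Itgae, the alpha E chain of T cells that lodge in epithelium, was at -4.06, -2.52 and -2.52 at 72 h, against -1.12, -2.35 and -1.58 in controls. Its groups did not overlap, but the change of -2.94 in A/J stood beside one of -0.17 in C57BL/6J. The fitted change of -1.35 ± 0.49 (SE, limma adjusted p = 0.354) was -0.76 once the A/J array at 72 h was left out and -0.33 with the array set as a block. Itgb7, the beta chain that pairs with Itgae and Itga4, was at 0.19, -0.35 and 0.07 at 12 h, against 0.55, 0.70 and 0.55 in controls, with no overlap (-0.63 ± 0.19 SE, limma adjusted p = 0.349, and -0.70 with the block). Beside these, the mean change of 9 T and NK cell markers was -1.10, -0.34 and -0.29 at 12 h and -0.74, 0.0016 and -0.14 at 72 h. That of 7 B cell markers was -1.25, -0.89 and -0.46 at 12 h and -1.37, -0.33 and -0.32 at 72 h. Their part in the integrin values was not tested. Itgb4, the beta chain of hemidesmosomes, was at 1.44, 0.94 and 0.69 at 72 h, against 0.49, 0.47 and 0.43 in controls (0.56 ± 0.21 SE), without overlap. Itgb3, the beta chain of platelets and activated endothelium, was at 2.10, 0.70 and 0.70 at 72 h, against 0.33, 0.20 and 0.74 in controls (0.74 ± 0.31 SE), with the A/J pool far above the other two.

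Of the 5 ADAMTS genes 4 had a positive change in skin at 1 h, and of the 10 ADAM genes 4 had a positive and 6 a negative one. Of all features 42.9% had a positive change at that time. Adamts4, an aggrecan-cutting protease, was at 0.15, -0.05 and 0.94 at 1 h, against -0.52, -0.86 and -1.03 in controls. Adamts12, a related protease, was at 2.15, 1.03 and 1.77, against 1.39, 0.11 and 0.74. The Adamts4 groups did not overlap and those of Adamts12 did, and both genes had a change of at least 1.5-fold in every strain. The fitted change of Adamts4 was 1.15 ± 0.50 (SE, limma adjusted p = 1.0). Adam8, a sheddase of leukocytes, was at 2.47, 2.28 and 2.04, against 1.57, 0.99 and 1.82 in controls, without overlap (0.81 ± 0.25 SE). Adamts1 was at 2.01, 2.72 and 2.21, against 1.46, 1.01 and 2.19 (0.76 ± 0.32 SE), and the median of the 5 ADAMTS genes was 0.76. Adam6b, an ADAM of sperm, was at -2.53, -2.30 and -3.53, against -1.97, -1.60 and -1.56 in controls (-1.07 ± 0.34 SE), with every 1 h pool below every control. The mean ratio of Adam6b over all skin arrays, -2.24, was among the lowest of the group. Col9a2 had a change of -0.54 ± 0.23 (SE).

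At 12 h in skin the fibrillar collagens had negative changes, all 5 of them, with a median of -1.14. Of all features 45.3% had a positive change at that time. The C3H/HeMs pool had the largest change for Col1a1, Col1a2, Col2a1 and Col5a2, while Col11a2 was at 0.06 there, beside -0.29 in A/J and -0.70 in C57BL/6J. Col1a1 was at 1.49, 0.72 and -0.25 at 12 h, against 2.49, 0.74 and 2.95 in controls. Col1a2 was at 1.74, 1.20 and 0.58, against 2.25, 1.23 and 3.5. The A/J and C3H/HeMs pools were below their controls, the C57BL/6J pool was level with its own, and the groups overlapped. The fitted changes were -1.41 ± 0.61 and -1.15 ± 0.50 (SE, limma adjusted p = 0.732 for each), and -0.47 and -0.39 without the C3H/HeMs 12 h array. Col2a1, the cartilage collagen, was at 0.48, 0.17 and -0.36, against 0.86, 0.27 and 2.58, and its change in C3H/HeMs was -2.94, beside -3.20 for Col1a1 and -2.92 for Col1a2. Over 12 arrays the ratios of Col1a1 and Col2a1 had r = 0.89 in skin and 0.93 in lung. At 72 h Col1a1 was at 2.41, 2.55 and 4.21, above the controls of C57BL/6J and C3H/HeMs and level with that of A/J (1.00 ± 0.61 SE).

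Skeletal muscle markers were also far apart between these C3H/HeMs pools. The mean ratio of 9 skeletal muscle genes was 1.49 in the C3H/HeMs control, against -1.44 in the A/J and -0.08 in the C57BL/6J control, and its change in C3H/HeMs was -3.26 at 12 h and -2.65 at 72 h, with 0.88 and 0.29 in A/J. The mean of 6 fibroblast genes outside the 81 (Dcn, Lum, Pdgfra, Pdgfrb, Thy1 and S100a4) had a change of -0.32 in C3H/HeMs at 12 h, and 0.15 and 0.10 in A/J and C57BL/6J. The part of tissue composition in the collagen values was not tested.

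Itgam and Mmp12, genes of leukocyte adhesion and macrophage proteolysis, were on the positive side in skin at 12 h. Of the 9 matrix metalloproteinases 2 had a positive and 7 a negative change at that time, with a median of -0.07. Itgam, the alpha chain of the CR3 integrin of neutrophils and macrophages, was at 0.41, 0.07 and -0.08 in controls, 1.61, 1.12 and 0.11 at 1 h, 0.70, 2.41 and 1.55 at 12 h, and 0.73, 1.22 and 1.45 at 72 h. Every irradiated pool was above the control of its strain, and the 12 h and 72 h pools were above all controls. The fitted change was 0.81 ± 0.45 at 1 h, 1.42 ± 0.45 at 12 h and 1.00 ± 0.45 at 72 h (SE, limma adjusted p = 1.0, 0.604 and 0.664). Mmp12, the macrophage elastase, was at 0.28, 0.64 and 0.52 at 12 h, against -0.43, 0.15 and -0.34 in controls, without overlap (0.69 ± 0.30 SE). Beside them, 7 neutrophil markers had a mean change of 0.35, 1.11 and 1.28 and 6 macrophage and monocyte markers one of 0.58, 1.42 and -0.51 at 12 h, and their part was not tested. Itgb2, the beta chain that pairs with Itgam, had changes of 0.50, 1.20 and -0.77, so that the C3H/HeMs pool was high for Itgam and low for its partner.

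Ltbp4 and the inhibitory Smads of skin were on the negative side at 12 h and 72 h. Ltbp4, which tethers latent TGF-beta and supports elastic fibres, was at -0.29, 0.69 and 0.71 in controls, -0.28, 0.49 and 0.27 at 1 h, -0.37, -0.49 and -0.49 at 12 h, and -0.41, -0.38 and -0.97 at 72 h. The 12 h and 72 h pools were below every control, by little in A/J, whose control was itself low. The fitted change was -0.82 ± 0.29 at 12 h and -0.96 ± 0.29 at 72 h (SE, limma adjusted p = 0.638 and 0.650). Smad7, an inhibitor of the TGF-beta receptor, was at 0.86, 1.22 and 0.24 in controls, 0.11, 0.65 and -0.11 at 1 h, 0.68, -0.19 and -0.92 at 12 h, and 0.28, -0.45 and -0.04 at 72 h. Every irradiated pool was below the control of its strain, and the groups overlapped at each time, as the C3H/HeMs control was low. Its change was -0.91 ± 0.34 at 12 h and -0.84 ± 0.34 at 72 h, and that of Smad6 -0.92 ± 0.48 and -0.94 ± 0.48 (SE). All 6 Smads had a negative change at 72 h, from -0.94 to -0.13, with a median of -0.28, while 4 of the 5 ligands, receptors and induced proteins had a positive one, with a median of 0.36. Of all features 49.0% had a positive change at that time. Fbln5 had -0.79 ± 0.29 at 12 h and 0.06 ± 0.29 at 72 h, and Fbln2, a fibulin of basement membranes and microfibrils, had 0.49 ± 0.21 and 0.56 ± 0.21 (SE).

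Most metalloproteinases of skin were on the positive side at 72 h, and the other protease families were mixed. Of 9 matrix metalloproteinases 8 had a positive change, with a median of 0.57, where 49.0% of all features had a positive change. Beside these genes the mean change of 3 hair follicle markers was -2.15, -1.87 and -1.47 in the A/J, C57BL/6J and C3H/HeMs pools. The part of these markers was not tested. Mmp11, a stromal metalloproteinase, was at 0.42, 1.27 and 0.19 at 72 h, against 0.31, 0.63 and -1.13 in controls (0.69 ± 0.26 SE). Mmp14 was at 2.19, 2.59 and 2.40, against 2.04, 1.5 and 1.94, with no overlap (0.57 ± 0.24 SE). Adamts4 was at -0.49, 0.25 and 2.43, against -0.52, -0.86 and -1.03, and Adamts12 at 1.33, 1.68 and 3.6, against 1.39, 0.11 and 0.74. For both ADAMTS genes the C3H/HeMs pool was far the highest and the A/J pool level with its control. Their changes were 1.54 ± 0.50 and 1.46 ± 0.61 (SE, limma adjusted p = 0.664 for Adamts4), and Adamts4 had 0.87 without the C3H/HeMs 72 h array. Adamts5 had a change of 0.35, Adamtsl2 of -0.24 and Adamts1 of -0.41, negative in every strain for Adamts1, and of the 10 ADAM genes 6 had a positive and 4 a negative change, with a median of 0.04. Col23a1, a transmembrane collagen, was at 1.01, 1.20 and 1.36 at 72 h, against 0.41, -0.25 and 0.08 in controls, with no overlap (1.11 ± 0.40 SE, limma adjusted p = 0.664). Its 2 probes had changes of 0.87 and 1.34. Itga4, an integrin chain of leukocytes, had the largest fitted change, 1.85 ± 0.61 (SE), from 3.52, -0.04 and 0.33 at 72 h, against -0.19, -0.40 and -1.15 in controls, and 0.92 without the A/J 72 h array. Itgb4 was at 5.03, 4.65 and 4.73, against 3.70, 3.06 and 4.77, where the C3H/HeMs control was already high (0.96 ± 0.35 SE).

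**Figure D4:**
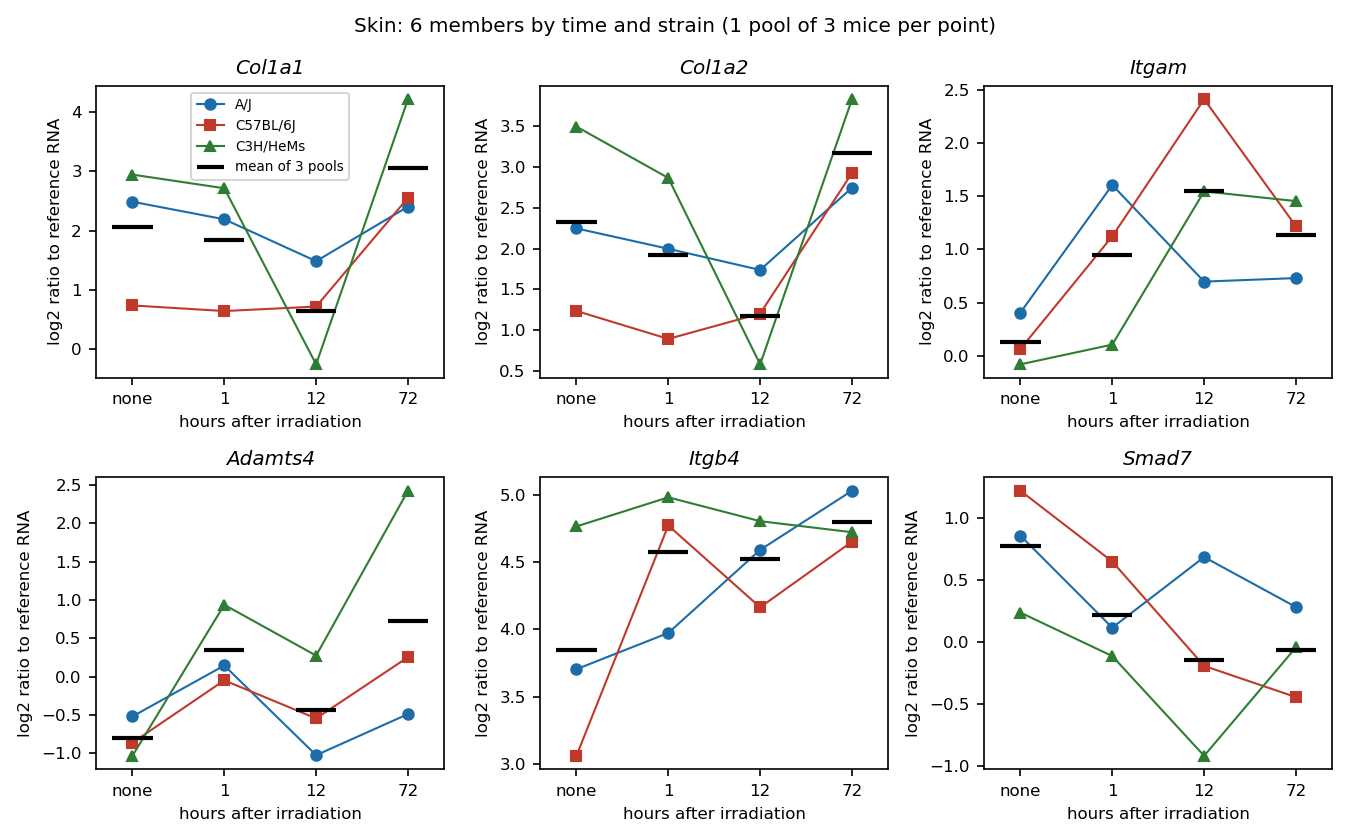
Log2 ratio to the reference RNA (vertical axis, each panel on its own scale) of 6 genes in skin against hours after irradiation, with 1 point per pool of 3 mice, lines joining the pools of a strain and a black bar at the mean of 3 pools. The C3H/HeMs pool is the lowest for Col1a1 and Col1a2 at 12 h and the highest at 72 h, and Smad7 is below the control of each strain at every time.

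The response was set against that of the other tissue with a contrast of the skin change minus the lung change over all 24 arrays. At 1 h, 12 h and 72 h, 0 of 81 genes and 0% of all features passed, with a lowest adjusted p of 1.0, 0.556 and 0.367 among the genes. At an unadjusted p under 0.05 there were 0, 5 and 9 of the 81 (0%, 6.17% and 11.1%), against 2.01%, 8.42% and 12.8% of all features, so the shares were not above the background. The genes at this level at 12 h were Itgam (difference of 1.29 ± 0.53), Fbln5 (-0.81 ± 0.36), Adamtsl2 (-0.95 ± 0.38), Smad7 (-0.98 ± 0.41) and Col1a2 (-1.36 ± 0.62, SE), and at 72 h Adamts4 (1.87 ± 0.59) and Adamts12 (1.87 ± 0.78, SE) had the largest differences. Tissue, dose, body site and dye cannot be told apart in this contrast.

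Over all 12 arrays of a tissue, the highest mean ratios in skin were those of Col17a1 (5.13 ± 0.47), Itgb4 (4.44 ± 0.60), Tgfbi, Itga6 and Col1a2, and in lung those of Col23a1 (2.31 ± 0.44), Smad6, Lamb3, Adamtsl2 and Smad7 (SD). The lowest were those of Adam2, Adam6b, Col9a2, Col9a1 and Adamdec1 in skin and of Adam2, Col2a1, Adam6b, Col1a1 and Itgae in lung. Adam2, an ADAM of sperm, averaged -3.20 in skin and -3.64 in lung, low in both tissues beside a reference of many organs.

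Between the tissues without irradiation, by contrast, many of the genes differed. In non-irradiated skin against non-irradiated lung, 38 of 81 passed (46.9%), against 58.1% of all features, so the share was below the background, and 42 had an unadjusted p under 0.05, against 62.5%. Of the 38, 21 were higher in skin, where 35.6% of all features were, and 17 lower in skin, where 22.5% of all features were. Each tissue was labelled with 1 dye, so that dye and tissue cannot be told apart.

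Structural genes of connective tissue and of the epidermal junction led those higher in skin. Col17a1 was at 4.68, 4.90 and 5.11 in the skin controls, against 0.20, 0.40 and 0.65 in the lung controls, a difference of 4.48 ± 0.30 (SE, limma adjusted p = 5.66e-09). Itgb4, which joins Col17a1 in hemidesmosomes, differed by 3.38 ± 0.33, and Itga6, its partner chain, by 1.51. Col1a1 was at 2.49, 0.74 and 2.95 in skin, against -2.54, -2.49 and -2.16 in lung (4.45 ± 0.60 SE, limma adjusted p = 1.01e-05), and Col1a2 differed by 3.74 ± 0.47 and Col2a1 by 3.93 ± 0.44 (SE). Tgfbi, a matrix protein induced by TGF-beta, was at 3.14, 2.72 and 4.74 in skin, against 0.32, 0.30 and -0.21 in lung (3.40 ± 0.39 SE). Mmp14 was at 2.04, 1.5 and 1.94 in skin, against -0.26, -0.57 and -0.28 in lung (2.20 ± 0.19 SE). For each of these genes every skin pool was above every lung pool. Of the 5 fibrillar collagens 4 were higher in skin, and Col11a2, at 0.02, was the exception.

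The inhibitor Smad6 and several ADAMTS genes led those lower in skin. Smad6 was at 0.03, 0.46 and -1.01 in skin, against 2.24, 2.23 and 2.43 in lung (-2.48 ± 0.40 SE, limma adjusted p = 5.89e-05). The other Smads went the other way or did not pass: Smad1, Smad2, Smad4 and Smad5 were higher in skin, by 1.75, 1.03, 1.11 and 0.89, and Smad7 was at -0.55 without passing. Adamtsl2, an ADAMTS-like protein of microfibrils, was at -0.96, -0.73 and -0.65 in skin, against 1.29, 1.56 and 1.76 in lung (-2.32 ± 0.25 SE). Col23a1 was at 0.41, -0.25 and 0.08, against 1.81, 2.14 and 2.47 (-2.06 ± 0.39 SE), Adamts5, an aggrecan-cutting protease, was at a difference of -1.67 ± 0.35 and Adam22, an ADAM without protease activity, at one of -1.51 ± 0.23 (SE). Of the leukocyte integrins, Itgal, Itgb7 and Itgb2 were lower in skin, at -1.06, -0.72 and -0.70, and Itga4, Itgam and Itgae, at -0.83, -0.18 and 0.80, did not pass. The type II TGF-beta receptor gene Tgfbr2 was lower in skin, at -0.89.

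**Figure D5:**
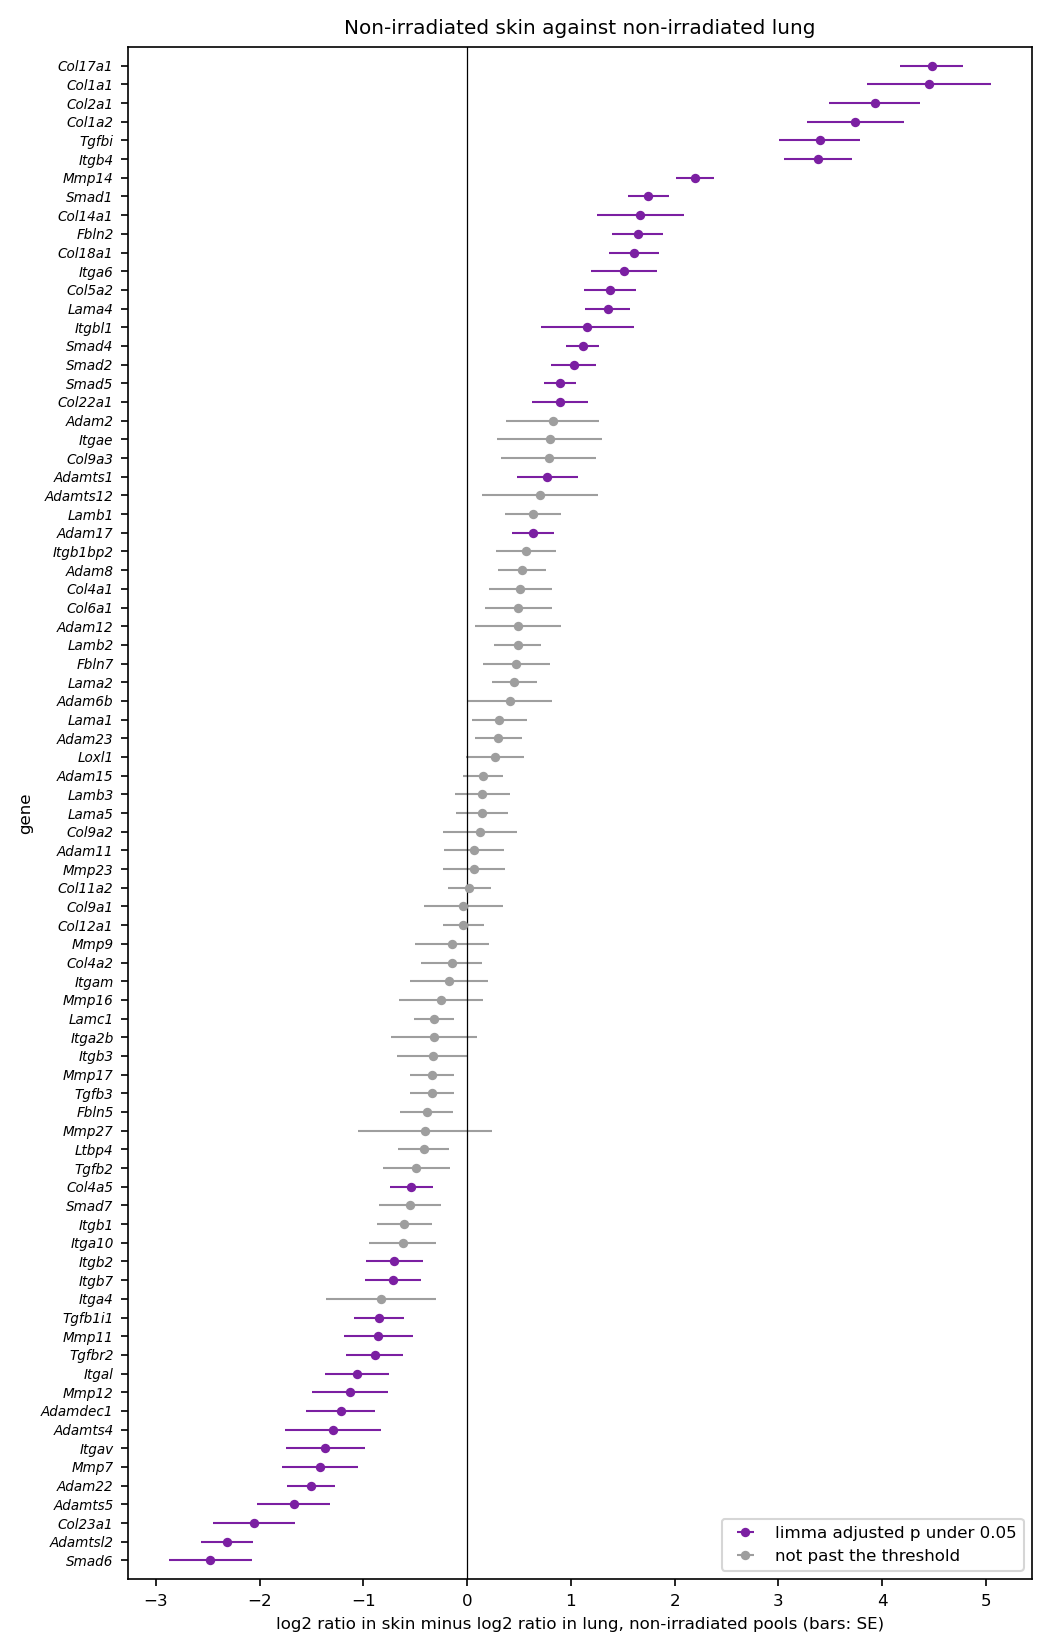
Difference in log2 ratio between non-irradiated skin and non-irradiated lung (horizontal axis, skin minus lung) for each of the 81 genes, with bars of 1 SE; purple marks a limma adjusted p under 0.05. Col17a1 at 4.48 and Smad6 at -2.48 are the ends of the range, and 38 genes are purple.

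Strain differences over the 4 lung groups were found for 3 of 81 genes, against 2.95% of all features (limma F test). Adamdec1, a protease of macrophages and dendritic cells, averaged 0.26 ± 0.04 in A/J and 0.18 ± 0.15 in C57BL/6J, with -1.15 ± 0.48 in C3H/HeMs (SD, n = 4 arrays, limma adjusted p = 0.0144). Smad4 averaged 0.11 ± 0.17, -0.03 ± 0.05 and -0.66 ± 0.12 (SD, limma adjusted p = 0.0243), and all 4 C3H/HeMs arrays were below the others. Col18a1, the endostatin-bearing collagen of basement membranes, averaged -1.06 ± 0.13, -1.49 ± 0.09 and -0.90 ± 0.14 (SD, limma adjusted p = 0.0452). These calls were fragile: with any 1 strain left out 0 of the 3 passed, and with 1 probe per gene Smad4 had an adjusted p of 0.462. In skin 0 of 81 passed, against 0.377% of all features, with Itgae the closest at -0.32 ± 0.34 in A/J, with -1.56 ± 0.42 in C57BL/6J and -1.39 ± 0.25 in C3H/HeMs (SD, limma adjusted p = 0.0789). At an unadjusted p under 0.05 there were 23 of 81 (28.4%) in lung and 16 (19.8%) in skin, against 23.7% and 19.1% of all features. The interaction of strain and irradiation was passed by 0 of 81 in lung, against 0.0229% of all features, and by 0 of 81 in skin, against 0%. At an unadjusted p under 0.05 the interaction had 3 genes in lung (Adamdec1, Col23a1 and Adam11) and 1 in skin (Tgfbi), against 2.25% and 3.35% of all features.

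Some of the genes followed each other from array to array in skin. Over its 12 arrays Col1a1 went with Col1a2 (Pearson r = 0.97), Mmp16 (0.95), Mmp23 (0.91), Col2a1 and Fbln5 (0.89 each), and Itgam with Adam23 (0.78) and Mmp9 (0.61). In lung the gene most like Itgam was also Mmp9 (0.70), the gelatinase of neutrophils and macrophages. Col17a1 went in lung with Loxl1 (0.72), Adam8 (0.70) and Mmp14 (0.67), and in skin with Fbln2 (0.71). These values describe arrays that share strains, times and scale.

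Genes of the same pathways outside the name rule were not called after irradiation either. After irradiation 0 of 24 further matrix proteins, 0 of 12 collagen processing enzymes, 0 of 17 TGF-beta pathway genes and 0 of 11 genes of the integrin adhesion machinery passed at any time in either tissue. In lung at 72 h the medians of these lists were 0.25, 0.06, 0.20 and 0.23. The skin medians at that time were 0.04, 0.04, -0.33 and -0.03. An unadjusted p under 0.05 was found at 72 h for 8, 0, 3 and 3 of them in lung, where 12.4% of all features had one, and for 2, 1, 4 and 0 in skin, where 7.39% had. Of 9 p53 targets, genes known to respond to radiation, Cdkn1a rose in lung at 1 h, and Cdkn1a, Ccng1 and Trp53inp1 at 12 h and 72 h, while 0 passed in skin, where 4, 5 and 6 had an unadjusted p under 0.05. In non-irradiated skin against lung, 12 matrix proteins were higher and 4 lower in skin, with 3 and 2 collagen processing enzymes, 8 and 4 TGF-beta pathway genes and 2 and 3 adhesion genes, where 35.6% of all features were higher and 22.5% lower in skin.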

How the data were processed

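Expression was measured on 24 two-colour Agilent mouse cDNA arrays of 9275 probes. What was deposited is a log10 ratio of red (Cy5) to green (Cy3) per probe, from Agilent Feature Extraction per the submitters' processing notes. Its version, background correction and dye normalization are not given in the sources used here. Lung log10 ratios were turned in sign, all were multiplied by 3.32 to give log2, and each array was centred on its median. Probes with 1 gene symbol (6433; 381 had several and 2461 none) were averaged per gene, which gave 8750 features. The 81 genes had 88 probes, and 7 of them had 2 probes; all 81 matched a current RefSeq gene table.

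Tests used limma 3.58.1 in R 4.3.3. Each tissue was fitted over its 12 arrays, with strain as a block beside the 4 groups (6 residual degrees of freedom). Skin and lung were compared over 24 arrays, in controls with the strain as a block and in responses with a block for each strain in a tissue. P-values were adjusted over all features by Benjamini-Hochberg with a threshold of 0.05. The fits were tested on simulated data. The replicate number is the strain, and deviations from group means correlated by -0.05 to 0.71 within a strain in lung and by -0.05 to 0.68 in skin, so strain stayed in the fits as a factor of the design. The number of arrays limits precision.

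The genes, lists and tests were chosen with earlier results of these data known. Named are, per tissue and time, the 5 genes of lowest p in each direction among those of 1 sign throughout the strains, the 5 largest tissue differences per direction, and the 5 lowest p of the strain tests, of which only some are described. For genes named per tissue and time, the agreement of the strains at that time was thus fixed by the choice. Col1a1, Col2a1, Col4a1, Col9a3, Adamts12, Itgb2, Tgfb2 and the other Smads and some other genes are named for their role or partner, a choice made with the values in view. Alternatives covered the strain block, scaling, probe choice, array weights, the lung array set, the threshold and each array or strain left out.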

Additional observations from a re-analysis of the deposited data

How the results depend on the processing

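No count of 0 called genes after irradiation, in the tissue difference of the response or in the interaction changed under any alternative tried. With no replicate block (strain not in the fit) the irradiation counts stayed at 0 and 34 genes passed between skin and lung controls, where 38 did with the block; over the alternatives that left out 1 array or strain this count was 29 to 40. The lung strain count of 3 was 5 under quantile normalization, 1 with 1 probe per gene, 6 with array weights, 0 without the smaller lung array set, 7 at a threshold of 0.1, and 0 to 2 in the repeats without 1 strain or 1 array; the cause was not tested. The skin strain count of 0 was 6 with array weights, 2 at a threshold of 0.1, and 0 to 8 in such repeats, with 8 without the C3H/HeMs 12 h array and 1 without C3H/HeMs. Skin genes past the fold in all strains numbered 0 at 2-fold and 3 at 1.5-fold. Changes of sign were seen for Mmp7 in lung at 72 h, which was -0.57 and became 0.21 with the array set as a block and 0.089 with that set left out. Among the repeats without 1 strain or 1 array, the change at 1 h in lung ran from -0.52 to 0.11 for Mmp27, which was -0.18, and from -0.66 to 0.019 for Mmp7, which was -0.32. Both genes were positive with the 1 h array of C57BL/6J left out, and Mmp27 also without the A/J control. The cause was not tested. With 3 pools per group, 1 per strain, the number of arrays limits what could pass.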

Other observations

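The 3 genes left out by name were measured in the same fits. In skin Timp1, an inhibitor of metalloproteinases, had changes of 1.27 ± 0.43, 2.26 ± 0.43 and 1.09 ± 0.43 at 1 h, 12 h and 72 h (SE, limma adjusted p = 1.0, 0.168 and 0.664), Mmp2, a gelatinase, 0.23 ± 0.25, 1.00 ± 0.25 and 0.92 ± 0.25, and Itga5, the fibronectin receptor chain, 1.31 ± 0.33, 0.82 ± 0.33 and 0.45 ± 0.33. In lung Mmp2 had 0.21 ± 0.17, 0.91 ± 0.17 and 0.74 ± 0.17 (SE, limma adjusted p = 1.0, 0.147 and 0.263).

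For all 7 genes with 2 probes, the probes gave changes of opposite sign in at least 1 of the comparisons of irradiated with control pools. The 2 probes of Smad4 in lung at 72 h were at 0.37 and -0.52, those of Smad5 in lung at 12 h at -0.11 and 0.48, and those of Col5a2 in skin at 72 h at -0.04 and 1.14.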
